A study of Mus musculus with 6 samples.

Results

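The genes described here are 37 genes of the unfolded protein response and of protein folding in the endoplasmic reticulum (ER), chosen by name as chaperones and ER-associated degradation genes on one side and targets of the transcription factors ATF4 and CHOP on the other. All 37 were found, each in 1 row, among the 31617 genes measured, and 35 of them were among the 10000 genes with the highest mean, called expressed here. The data are RNA-seq of pancreatic macrophages of wild type Balb/c mice, sorted as CD45+CD11b+F4/80+ cells. Caerulein, a secretagogue that drives the enzyme-secreting acinar cells to excess, was injected 10 times at hourly intervals to cause acute pancreatitis, and the macrophages were collected on day 1, 3, 4, 5 or 7 after the first injection. Mock mice, given saline in place of caerulein per the design text and labelled as untreated, serve as day 0. Each day is 1 library from a pool of more than 3 mice, which leaves every difference between days without a replicate check, and day 4 is named by its sample labels but not by the design text.

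When unfolded proteins gather in the ER, 3 membrane sensors respond. IRE1 (encoded by Ern1) splices the mRNA of Xbp1, ATF6 is cut free to enter the nucleus, and both then switch on chaperones, disulphide isomerases and the machinery that pulls misfolded proteins out for degradation. PERK (encoded by Eif2ak3) slows translation and favours that of Atf4, whose targets include the transcription factor CHOP (encoded by Ddit3), amino acid synthesis enzymes and the phosphatase subunit Ppp1r15a, which restores translation. The ATF4 branch can also be entered by other kinases, on amino acid shortage for example, so the branches need not move together. Macrophages make and secrete many proteins and use IRE1 signalling in inflammation. Values here are whole genes, so spliced and unspliced Xbp1 cannot be told apart, and translation of Atf4 and cleavage of ATF6 were not measured.

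The sort genes were present in each library, Ptprc (CD45) between 7282 and 12626 normalised read counts, Adgre1 (F4/80) between 9671 and 23702 and Itgam (CD11b) between 678 and 2627. The libraries held between 14853084 and 25726455 reads. Transcripts of acinar cells, which are rich in ER, were also present, and not evenly. The sum of 16 acinar genes made up 4.05% of all normalised counts in mock and 5.87% on day 7, but 0.288%, 0.564%, 0.195% and 0.177% on days 1, 3, 4 and 5. Of these 16 genes, none was at 0 in any library, although the sort on CD45 should remove acinar cells. In sorted pools such as these, a lower level can mean fewer cells of a type or less RNA per cell, and these cannot be told apart.

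The promoters of the folding genes are shown first. The genes were chosen by name as members of this response, and the motifs searched are elements ascribed to the same response. A high share of members with a motif is therefore not independent of the choice of genes. Promoter sequences from RefSeq (build GRCm38.p6) matched 32 of the 37 members by symbol, with Ero1l and Ero1lb matched under their current symbols Ero1a and Ero1b. Atf6, Hyou1, Manf, Sec11c and Sec61a1 were not matched. In the 250 bases before each gene's start, 4 motifs were searched on both strands. The ER stress response element ERSE is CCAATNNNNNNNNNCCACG, ERSE-II is ATTGGNCCACG, the unfolded protein response element UPRE is TGACGTGG, and the C/EBP-ATF response element CARE is TGATGNAA. ERSE, ERSE-II and, read on the other strand, UPRE share the letters CCACG and can overlap. ERSE was found upstream of 9 of the 32 members (28.1%) and in 37 of all 32851 promoter windows (0.113%). Those 9 were Hspa5, Hsp90b1, Calr, Canx, Creld2, Dnajc3, Pdia6, Ero1lb and Syvn1, all in the folding and degradation groups. ERSE-II was found upstream of Herpud1 alone among the members and in 0.0304% of windows. CARE was found upstream of Asns, Chac1 and Herpud1 (9.38% of members, 3.45% of windows), and UPRE in no member and 0.563% of windows. A match is a run of letters and does not show that a factor binds there.

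The sequences below run 5′ to 3′ on the gene's strand and end at the base before the gene's start, with motif matches in capitals. Creld2, Pdia6 and Hspa5 are shown as ERSE-bearing genes that exceeded mock by at least 2-fold on day 1, Ero1lb as an ERSE-bearing gene that was lower, Herpud1 for its ERSE-II beside a CARE, and Asns as an ATF4 target with a CARE.
Creld2, chr15:88819396-88819645, plus strand: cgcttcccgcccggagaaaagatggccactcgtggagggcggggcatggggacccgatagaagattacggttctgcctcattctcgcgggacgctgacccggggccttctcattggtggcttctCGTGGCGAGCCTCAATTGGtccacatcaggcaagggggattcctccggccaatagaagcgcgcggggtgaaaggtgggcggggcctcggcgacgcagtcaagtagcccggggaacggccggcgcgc
Pdia6, chr12:17266339-17266588, plus strand: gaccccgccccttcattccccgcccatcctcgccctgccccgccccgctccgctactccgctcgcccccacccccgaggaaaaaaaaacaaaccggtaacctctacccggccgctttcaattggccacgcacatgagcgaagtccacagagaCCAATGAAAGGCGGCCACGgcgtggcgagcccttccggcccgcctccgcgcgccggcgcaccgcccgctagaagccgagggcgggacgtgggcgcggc
Hspa5, chr2:34771840-34772089, plus strand: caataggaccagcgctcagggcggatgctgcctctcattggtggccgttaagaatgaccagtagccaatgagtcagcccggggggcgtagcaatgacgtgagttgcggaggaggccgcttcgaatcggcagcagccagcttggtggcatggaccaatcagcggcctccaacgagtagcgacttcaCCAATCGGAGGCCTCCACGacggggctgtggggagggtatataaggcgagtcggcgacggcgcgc
Ero1lb, chr13:12565633-12565882, plus strand: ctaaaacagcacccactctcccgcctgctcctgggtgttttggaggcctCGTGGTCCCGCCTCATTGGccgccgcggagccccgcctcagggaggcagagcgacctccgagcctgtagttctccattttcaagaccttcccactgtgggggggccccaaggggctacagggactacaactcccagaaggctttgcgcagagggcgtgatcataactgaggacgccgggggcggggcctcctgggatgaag
Herpud1, chr8:94386179-94386428, plus strand: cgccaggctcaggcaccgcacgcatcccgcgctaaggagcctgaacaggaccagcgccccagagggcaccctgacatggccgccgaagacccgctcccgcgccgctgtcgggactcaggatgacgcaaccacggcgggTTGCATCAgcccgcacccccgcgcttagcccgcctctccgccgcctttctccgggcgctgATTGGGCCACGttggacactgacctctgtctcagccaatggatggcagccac
Asns, chr6:7693210-7693459, minus strand: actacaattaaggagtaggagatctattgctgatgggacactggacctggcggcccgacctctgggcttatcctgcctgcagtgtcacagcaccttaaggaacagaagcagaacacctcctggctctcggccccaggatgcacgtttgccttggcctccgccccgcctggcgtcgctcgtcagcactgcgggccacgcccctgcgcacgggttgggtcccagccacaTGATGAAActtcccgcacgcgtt

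Counted from the start, where -1 is the last base shown, the match lay at -126 to -108 in Creld2, -98 to -80 in Pdia6 and -65 to -47 in Hspa5. In Ero1lb it lay farther upstream, at -201 to -183. Hsp90b1, with a day 1 log2 ratio to mock of 0.58, had matches at -212 to -194 and at -107 to -89. Calr, with a ratio of 1.09, had its match at -162 to -144, and Canx, with 0.18, at -145 to -127. Dnajc3, with 0.40, had its match at -105 to -87 and Syvn1, with 0.94, at -44 to -26. The 10 folding and degradation members with an ERSE or ERSE-II had a median log2 ratio to mock of 0.76 on day 1, between -0.85 (Ero1lb) and 1.71 (Creld2). The other 10 matched members of those groups, with neither, had a median of 0.64, between 0.08 and 1.21. The 2 ranges overlapped. Of the 10 with the letters 4 exceeded mock by at least 2-fold on day 1, and of the 10 without them 1 did, Dnajb11. The share of all expressed genes was 6.68%. Scaling changed this split. With equal library totals only Creld2 of these genes passed, and after quantile normalisation Creld2 and Pdia6. With the median expressed gene set equal, Creld2, Pdia6 and Dnajb11 passed. Hyou1 and Manf, also past 2-fold on day 1, had no matched promoter and are in neither set.

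Log2 ratios here are between normalised read counts, each with a pseudocount of 17.8 added, and a 95% interval is an exact Clopper-Pearson interval of the ratio without pseudocount, which covers counting error only. Its half-width over expressed members had a median of 0.08 on the log2 scale, and says nothing of differences between pools of mice. On day 1, 8 of the 35 expressed members exceeded mock by at least 2-fold, where the share of all expressed genes was 6.68%, and 2 were at least 2-fold lower, where it was 9.58%. The 8 were Hspa5, Calr, Hyou1, Dnajb11, Creld2, Manf, Pdia6 and Ddit3, and the 2 were Phgdh and Ppp1r15a. Scaling bears on this count, since normalised counts summed to more on day 1 than in mock. The split was 6 to 3 when the median expressed gene was set equal in all libraries, where 517 of the 10000 expressed genes were higher and 1107 lower. It was 4 to 2 after quantile normalisation, where 499 of all genes were higher and 872 lower. With equal library totals it was 3 (Creld2, Manf and Ddit3) to 4 (Ero1lb, Asns, Phgdh and Ppp1r15a), where 382 of all genes were higher and 1286 lower.

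**Figure D1:**
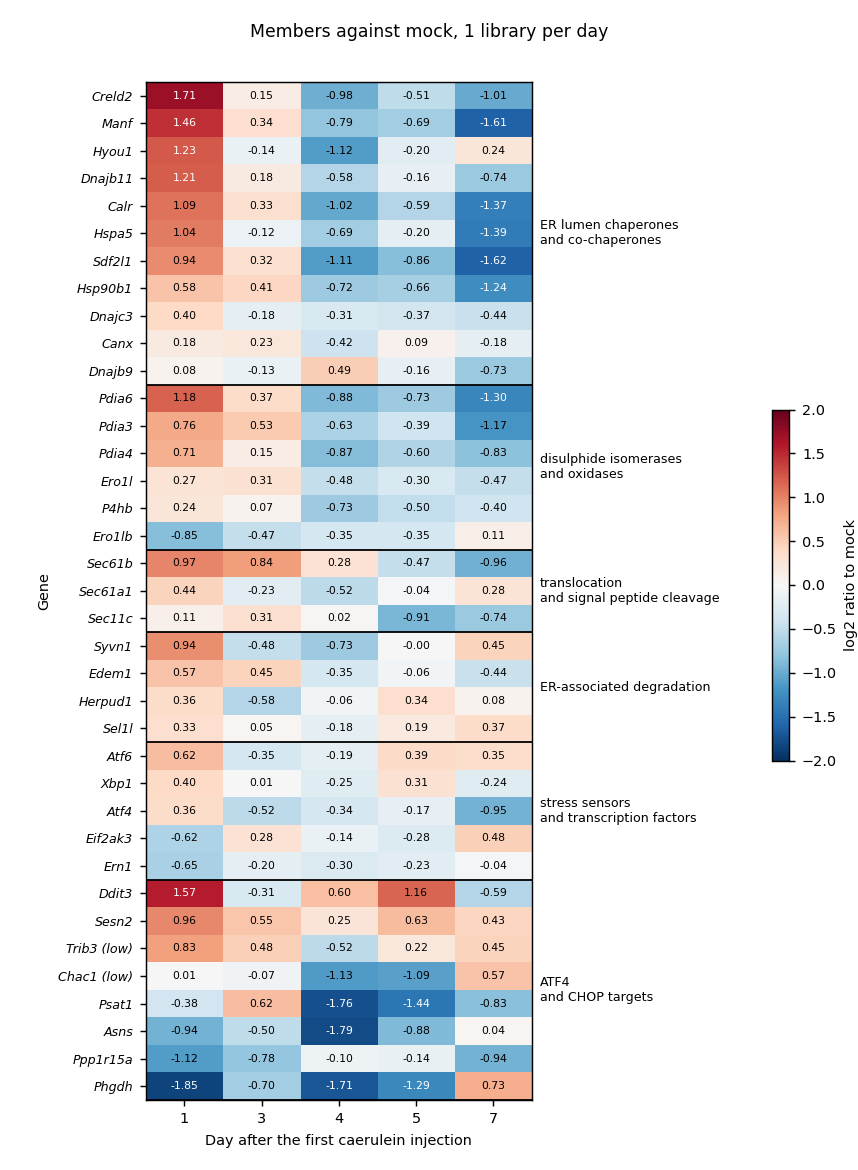
Log2 ratio of normalised read counts to mock for the 37 members (rows, grouped by role and ordered by day 1 within a group) on each day (columns), 1 library per day. Red is higher than mock and blue lower, and "low" marks the 2 members outside the expressed genes. Most chaperones and isomerases are red on day 1 and blue on days 4 and 7, while the amino acid enzymes Psat1, Asns and Phgdh are blue on days 1, 4 and 5.

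Among the chaperones of the ER lumen, Hspa5, which encodes the central chaperone BiP, stood at 40443 in mock, in normalised read counts, and at 83193, 37190, 25084, 35272 and 15411 on days 1, 3, 4, 5 and 7. Day 1 stood alone at the top and day 7 at the bottom, a 5.40-fold span. Its log2 ratio to mock was 1.04 on day 1 (interval 1.02 to 1.06) and -1.39 on day 7 (-1.42 to -1.37). Creld2, a folding helper released under ER stress, had the highest day 1 ratio of the members, 1.71 (interval 1.64 to 1.80). It was at 1554 in mock and at 5119, 1726, 782, 1084 and 764 on days 1, 3, 4, 5 and 7. Its levels on days 4 and 7 lay below mock by about the same amount.

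Manf, a secreted ER stress protein, was at 2616 in mock and at 7239, 3323, 1507, 1617 and 842 on days 1 to 7, in that order of days. It had the widest span of the folding and degradation genes, 8.60-fold between day 1 and day 7. Calr, the calcium-binding lectin chaperone calreticulin, was at 20357 in mock and at 43282, 25511, 10046, 13539 and 7884. Like Hspa5 and Manf it was highest on day 1 and lowest on day 7. Hyou1, which exchanges the nucleotide of BiP, took another course on day 7. It was at 641 in mock and at 1522, 580, 286, 554 and 760 on those days, so its lowest library was that of day 4.

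Dnajb11, a J-domain partner of BiP, was at 2936 in mock and at 6837, 3328, 1959, 2622 and 1755 on days 1, 3, 4, 5 and 7. Sdf2l1, which works with J-domain proteins in the ER, was at 5273 in mock and 10143, 6597, 2431, 2906 and 1704 on those days, just under 2-fold on day 1 at a log2 ratio of 0.94. Hsp90b1, the ER form of HSP90, had ratios of 0.58, 0.41, -0.72, -0.66 and -1.24. These 3 also had their highest library on day 1 and their lowest on day 7. The lectin chaperone Canx, in the ER membrane, ranged from 3531 to 5565 over the 6 libraries, a 1.58-fold span, and its day 1 ratio of 0.18 changed sign with scaling, as did those of days 5 and 7. Dnajc3, which inhibits PERK and serves BiP as a J-domain partner, spanned 1.80-fold. Dnajb9, a J-domain protein induced through XBP1, and Canx were the 2 chaperones without their highest value on day 1, Canx being highest on day 3. Dnajb9 was at 622 in mock and at 656, 565, 881, 555 and 367 on those days, highest on day 4, when Hspa5 and Calr were lower than in mock.

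**Figure D2:**
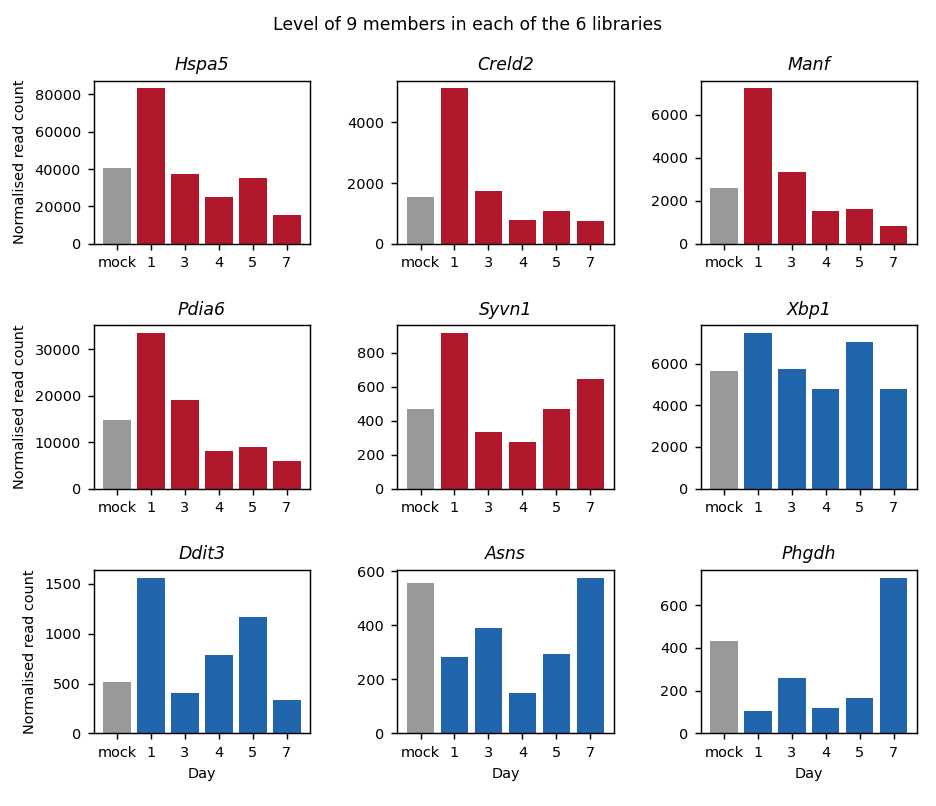
Normalised read count (vertical axes, each from 0 with its own scale) of 9 members in the 6 libraries, mock in grey and days 1 to 7 in colour, red for folding and degradation genes and blue for a transcription factor and ATF4 and CHOP targets. Hspa5, Creld2, Manf and Pdia6 are highest on day 1 and lowest on day 7, and Ddit3 is high on days 1 and 5. Phgdh is highest on day 7, as is Asns, which is about as high in mock.

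Disulphide isomerases form and reshuffle the cysteine bridges of new proteins. Pdia6 was at 14787 in mock and at 33448, 19174, 8048, 8928 and 6005 on days 1, 3, 4, 5 and 7. Pdia3, which acts on glycoproteins with calnexin and calreticulin, was at 17980 in mock and 30408, 25984, 11641, 13706 and 7969. Both were highest on day 1, still above mock on day 3 and below it from day 4. Pdia4 followed with log2 ratios of 0.71, 0.15, -0.87, -0.60 and -0.83. P4hb, the classical isomerase PDI, spanned 1.96-fold, with day 1 and day 3 ratios of 0.24 and 0.07 and a day 7 ratio of -0.40 that all changed sign with scaling. The oxidases that recharge the isomerases differed from each other. Ero1l, the broadly expressed form, had a day 1 ratio of 0.27, whereas Ero1lb, the form that is abundant in the pancreas, was at 810 in mock and at 441, 578, 630, 633 and 877 on days 1, 3, 4, 5 and 7. Ero1lb was thus high in the 2 libraries that held most acinar transcripts. What part acinar RNA has in its level was not tested.

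Of the 3 genes that bring proteins into the ER and trim their signal peptides, none passed 2-fold against mock on any day as deposited. Sec11c passed it downward on day 5 under the 3 other scalings. As deposited, 1.96% to 9.58% of all expressed genes passed it, by day and direction, so for 3 genes a count of none is near that share. Sec61b, a small subunit of the translocation channel, was at 751 in mock and at 1489, 1359, 917, 536 and 377 on days 1, 3, 4, 5 and 7, in descending order after day 1. Sec61a1, the channel itself, was at 2266 in mock and at 3078, 1930, 1572, 2211 and 2756, with no such descent. The signal peptidase subunit Sec11c had ratios of 0.11 on day 1 and 0.02 on day 4, both of which changed sign with scaling, then -0.91 on day 5 and -0.74 on day 7.

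The 4 ER-associated degradation genes spanned between 1.47-fold (Sel1l) and 3.32-fold (Syvn1), and none passed 2-fold against mock. For 4 genes that count is near the share of all expressed genes, 1.96% to 9.58% by day and direction. Syvn1, the ubiquitin ligase HRD1, had the widest span of the 4, at 470 in mock and 916, 332, 276, 469 and 646 on days 1, 3, 4, 5 and 7. Its partner Sel1l ranged from 1907 to 2796, and its day 7 value was the highest. Edem1, which picks out misfolded glycoproteins, had ratios of 0.57, 0.45, -0.35, -0.06 and -0.44. Herpud1, which assembles the ligase complex, was at 3709 in mock and at 4764, 2469, 3553, 4692 and 3913. Its day 5 value was about as high as that of day 1, which was not so for Hspa5, Calr or Creld2. On day 7 Syvn1, Sel1l and Herpud1 were above mock by 0.45, 0.37 and 0.08, while 10 of the 11 chaperones, all but Hyou1, were below it, Canx with a sign that depended on scaling.

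The sensors and their transcription factors spanned between 1.57-fold and 2.49-fold over the libraries. Ern1 was at 236 in mock and 144, 204, 189, 199 and 230 on days 1, 3, 4, 5 and 7, and Eif2ak3 at 208 and 129, 257, 188, 168 and 296. Both were lowest on day 1, when most chaperones were highest, with log2 ratios of -0.65 and -0.62 (intervals -1.04 to -0.39 and -1.04 to -0.35). Atf6 was at 1099 in mock and 1703, 861, 960, 1441 and 1401, a day 1 ratio of 0.62. Xbp1 mRNA was at 5663 in mock and at 7454, 5718, 4761, 7023 and 4790, highest on days 1 and 5. Atf4 mRNA was at 4084 in mock and at 5255, 2837, 3215, 3628 and 2110. Its day 1 ratio of 0.36 became -0.01 with quantile normalisation, and its day 7 ratio was -0.95. None of these 5 genes passed 2-fold against mock on any day. Of all expressed genes 1.96% to 9.58% did, by day and direction, so for 5 genes this count is near the share of all genes.

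The ATF4 and CHOP targets did not move as a block. Ddit3, encoding CHOP, was at 512 in mock and at 1557, 409, 784, 1168 and 335 on days 1, 3, 4, 5 and 7. It stood high on day 1, with a log2 ratio of 1.57 (interval 1.46 to 1.75), and again on day 5, at 1.16, and low on days 3 and 7. Sesn2, a stress-induced inhibitor of mTORC1, was at 272 in mock and at 546, 406, 327, 430 and 372, so mock was its lowest library. Trib3, a pseudokinase that damps CHOP and ATF4, was too low to count among the expressed genes, with between 19 and 95 reads. It was at 43.0 in mock and at 89.8, 66.9, 24.6, 53.0 and 65.0.

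The amino acid synthesis enzymes were lower than mock on days 1, 4 and 5. Phgdh, the first enzyme of serine synthesis, was at 431 in mock and at 107, 259, 119, 165 and 727 on days 1, 3, 4, 5 and 7. Its day 1 ratio of -1.85 was the lowest of the members on that day, and its day 7 value was the highest of the 6. Psat1, the next enzyme of that pathway, was at 574 in mock and at 438, 890, 157, 200 and 315, highest on day 3. Asns, asparagine synthetase, was at 558 in mock and at 282, 389, 149, 295 and 575. Mock and day 7 were its highest libraries. Chac1, which degrades glutathione, had 28 reads in mock, 57 on day 7, and 2 and 3 reads on days 4 and 5. Without pseudocount its log2 ratio to mock was -3.37 (interval -6.48 to -1.38) on day 4 and -3.10 (interval -5.46 to -1.40) on day 5. Ppp1r15a, an ATF4 and CHOP target that is also an early stress gene, was at 16816 in mock and 7741, 9805, 15653, 15247 and 8767, so mock was its highest library.

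Phgdh, Asns and Chac1 were thus highest in the day 7 library and higher in mock than on days 4 and 5. Acinar transcripts were abundant in those same 2 libraries, mock and day 7. Asns was about as high in mock as on day 7. Chac1, with few reads, was near its mock value of 26.7 on days 1 and 3 too, at 27.1 and 24.7. Psat1 took another course, highest on day 3 at 890 and below mock on day 7 at 315. The 16 acinar genes summed to 680609 normalised read counts in mock and to 57442, 102248, 37444, 32994 and 810875 on days 1, 3, 4, 5 and 7. The 2 with the highest mean, the lipase genes Cel and Pnlip, were at 93742 and 119710 in mock and at 3184 and 1854 on day 4. B cell genes and T and NK cell genes were also high in mock and on day 7. The 6 B cell genes summed to 6283 in mock, 5512 on day 7 and at most 1877 between, and the 6 T and NK cell genes to 3385, 6503 and at most 1768. What part RNA of these cells has in the course of the amino acid enzymes was not tested. The summed level of the 24 folding and degradation genes took another order, 156704 in mock and 287190, 178608, 97885, 121220 and 81104 on days 1, 3, 4, 5 and 7. It was lowest on day 7, when acinar transcripts were highest.

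**Figure D3:**
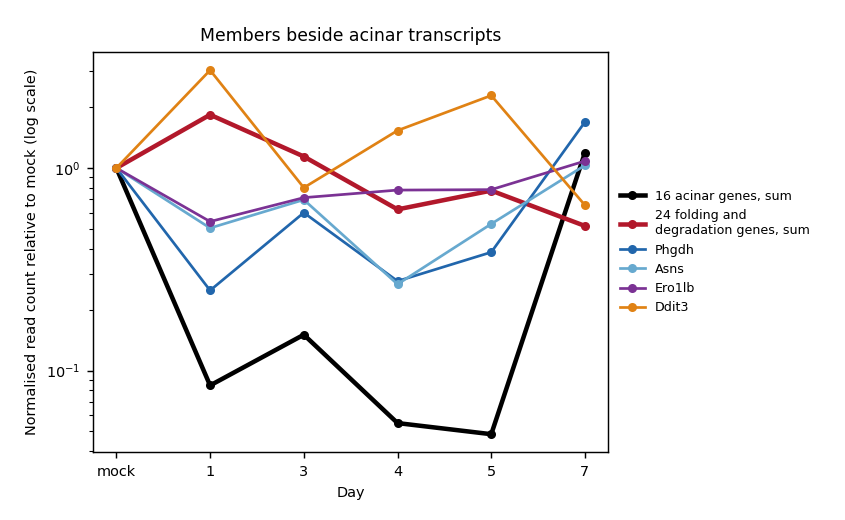
Normalised read count relative to mock (log scale) of the sum of 16 acinar genes, the sum of the 24 folding and degradation members and 4 single members in each of the 6 libraries. Asns, Phgdh and Ero1lb come back to or above the mock level on day 7 with the acinar sum, while the folding and degradation sum is at its lowest there. Psat1, not drawn, was below mock on day 7.

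Set against each other by their medians, the folding and degradation genes and the expressed ATF4 and CHOP targets were farthest apart on day 1. The 24 folding and degradation members, all expressed, had median log2 ratios of 0.64, 0.17, -0.60, -0.36 and -0.74 on days 1, 3, 4, 5 and 7. The 6 expressed ATF4 and CHOP targets had medians of -0.66, -0.41, -0.91, -0.51 and -0.27. The day 7 sign depended on the settings, with medians of 0.0012 with equal totals and 0.23 when Trib3 and Chac1 were kept. With those 2 genes kept the day 1 and day 3 medians were -0.18 and -0.19, and the means of the 6 genes on those days were -0.29 and -0.19. The medians of all 10000 expressed genes were 0.15, 0.08, -0.01, 0.12 and -0.11 on those days. With equal library totals they became -0.08, -0.03, -0.20, -0.02 and 0.16, which is why the medians are also given relative to them. Relative to all expressed genes the folding and degradation median was 0.49 higher on day 1 (0.26 to 0.49 over 4 other scalings and pseudocounts), and on day 7 it was lower, at -0.63 (-0.63 to -0.48). The target median relative to all genes was -0.81 on day 1 and -0.16 on day 7.

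A common scaling factor cancels, but for the pseudocount, from the distance between the medians. It was 1.30, 0.57, 0.31, 0.15 and -0.46 on days 1, 3, 4, 5 and 7, in descending order over the days. On day 1 Phgdh, Ppp1r15a, Asns and Psat1 lay below 0, while Ddit3 and Sesn2 lay at 1.57 and 0.96, in the range of the chaperones. The day 1 distance was 0.96 with means in place of medians and 0.82 when Trib3 and Chac1 were kept. With those 2 genes kept the day 7 distance was -0.97, larger in size than that of day 1. On day 5 the distance was -0.01 with means.

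**Figure D4:**
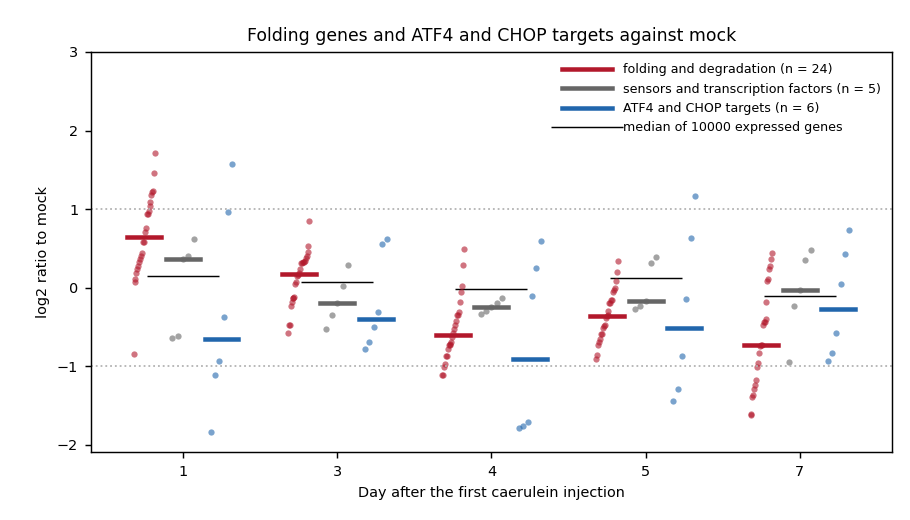
Log2 ratio to mock of each expressed member (points) on each day, with the median of each group (thick lines), the median of 10000 expressed genes (thin lines) and the 2-fold limits (dotted lines). The folding and degradation median lies 1.30 above that of the ATF4 and CHOP targets on day 1 and 0.46 below it on day 7.

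On day 3 none of the expressed members was past 2-fold against mock in either direction, where 3.73% of all expressed genes were higher and 5.71% lower. Sec61b at 0.84 and Psat1 at 0.62 were the highest members, and Ppp1r15a at -0.78 and Phgdh at -0.70 the lowest. On day 4, 6 members were at least 2-fold lower (Calr, Hyou1, Sdf2l1, Asns, Psat1 and Phgdh) against 8.11% of all expressed genes, and none was higher against 3.31%. With equal totals 9 were lower, where 1029 of the 10000 expressed genes were. On day 5 only Ddit3 was at least 2-fold higher, against 3.68% of expressed genes, and Psat1 and Phgdh were lower, against 6.4%. With equal totals 5 were lower, where 749 of all expressed genes were.

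On day 7, 8 members lay at least 2-fold below mock, against 6.57% of expressed genes, and none was higher, against 1.96%. The 8 were all folding genes: Hspa5, Hsp90b1, Calr, Sdf2l1, Creld2, Manf, Pdia3 and Pdia6. With equal totals 5 members were lower and 1, Phgdh, higher, where 296 of the 10000 expressed genes were lower and 562 higher. With quantile normalisation 2 (Sdf2l1 and Manf) were lower and none higher, where 520 of all genes were lower and 371 higher. Direction against mock held under each scaling for all 8.

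Over the 6 libraries 23 of the expressed members spanned at least 2-fold. Of these, 16 had their highest value on day 1, against 33.6% of the 5443 expressed genes with such a span. The lowest value fell on day 7 for 14 of the 23, against 39.7%, and on day 4 for 5, against 15.8%. Among the 16 folding and degradation genes with that span, 14 were highest on day 1 and 12 lowest on day 7. Among the 5 ATF4 and CHOP targets with that span, 1 (Ddit3) was highest on day 1 and 2 (Asns and Phgdh) on day 7. Of all expressed genes with such a span 15.3% were highest on day 7. For Asns the day 7 library exceeded mock by a log2 ratio of 0.04 only, with a counting interval of -0.12 to 0.21.

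Count tests used the 5 days as replicates of caerulein, so the spread they measure includes the course over days. In edgeR's quasi-likelihood test of the 5 caerulein libraries against mock, no member was called at an adjusted p below 0.05, and 0% of the 14106 genes tested were. At an unadjusted p below 0.05 there were 102 genes in all and no member. DESeq2 called 2 genes, neither a member. For a linear trend over day with mock as day 0, edgeR also called 0% of genes. At an unadjusted p below 0.05 it held 806 genes (5.71%) and 10 of the 37 members, all with negative slopes. Those were Hspa5, Hsp90b1, Calr, Dnajb11, Sdf2l1, Creld2, Manf, Pdia3, Pdia4 and Pdia6, with slopes between -0.38 per day (Manf, SE 0.10) and -0.19 (Pdia4, SE 0.07) on the log2 scale and the same adjusted p of 0.73. DESeq2 called 20 genes for the trend, again no member, with 12 members and 7.54% of all genes tested at an unadjusted p below 0.05. In edgeR the 10 became 2 without the day 1 library, where 2.09% of all genes tested were at that limit. They became 1 without day 7 (4.19% of all genes), 3 without day 5 (2.44%), 7 without day 4 (4.37%) and 9 without day 3 (5.32%). The share of all genes thus fell in these runs too, and each of them used fewer libraries.

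Other genes of these pathways were taken from lists that the choice of members did not include. Of 57 further expressed ER folding and quality control genes, 1 was at least 2-fold higher and 2 lower on day 1, where 6.68% and 9.58% of all expressed genes were. Their median log2 ratios were 0.30, 0.24, -0.16, -0.10 and -0.28 on days 1, 3, 4, 5 and 7. The 4 with the largest ratios were Fkbp11, Derl3, Kdelr3 and Fkbp2. Fkbp11, a prolyl isomerase of secretory cells, was at 270 in mock, 278 on day 7 and between 19.7 and 109 on the other days, and Derl3, a degradation channel protein that the plasma cell list also holds, at 145 in mock, 159 on day 7 and between 23.2 and 66.5 on the others. Both were high in the libraries rich in acinar transcripts. Kdelr3, a receptor that returns ER proteins, was at 292 on day 3 and at most 119 elsewhere. The day 3 library also had the highest sum of 8 fibroblast and stellate cell genes, 15691 against 3072 in mock. The CD45+CD11b+F4/80+ sort should remove such cells, and whether they contributed to Kdelr3 was not tested. Fkbp2 was at 1695 on day 3, its highest, and 372 on day 7.

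Of 27 further expressed genes of the ATF4 pathway, none was at least 2-fold higher on day 1 and 3 were lower, with a median of -0.17. The shares of all expressed genes on that day were 6.68% and 9.58%. On day 4, 1 was higher and 5 lower, where the shares of all genes were 3.31% and 8.11%. On day 5, 2 were higher and 4 lower, against 3.68% and 6.4%, and on day 7, 0 and 4, against 1.96% and 6.57%. Gdf15, a stress cytokine, was at 155 in mock and at 88.6, 232, 1190, 570 and 95.4 on days 1, 3, 4, 5 and 7. It was highest on day 4, when Ddit3 was at 784 and below its values of days 1 and 5. Slc7a11, the cystine transporter, was at 298 in mock and at most 164 after caerulein, Vegfa at 743 in mock, 871 on day 3 and 134 on day 5, and Cbs, a cysteine synthesis enzyme, at 215 in mock, 378 on day 7 and between 19.7 and 60.6 on the other days.

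Plasma cells are also rich in ER. The sum of 8 plasma cell genes was between 2428 and 3203 in the 6 libraries, and it was lowest on day 1. Its highest member was Tnfrsf13b, at 1472 in mock. Jchain was at 430 in mock and at 124, 54.9, 78.9, 267 and 523 on days 1, 3, 4, 5 and 7. Mzb1 was at 245 in mock and at 130, 43.0, 36.2, 60.3 and 211 on those days. Both were lower on day 1, when most chaperones were highest, than in mock, and lower still on days 3 and 4. Of the 7 expressed plasma cell genes 6 were below mock on day 1, where 3989 of the 10000 expressed genes were. On days 3 and 4, 5 were below it, where 4330 and 5107 of all genes were. Tnfrsf13b was above mock on days 1, 3 and 4 and Prdm1 on days 3 and 4. Irf4 went from a log2 ratio of -2.22 on day 1 to -0.65 on day 4. Markers of dividing cells, 6 genes, summed to 3704 in mock and to 406, 12637, 915, 681 and 1563 on days 1, 3, 4, 5 and 7, highest when no expressed member passed 2-fold. Neutrophil genes, 7 of them, summed to 7969 in mock, 11180 on day 4 and 491 on day 5. The day 4 sum does not stand for the list. Of its 6 expressed genes 1 was at least 2-fold higher than mock that day and 5 were lower, with a median log2 ratio of -1.54. The shares of all expressed genes were 3.31% and 8.11%. The 10 macrophage genes, most of whose sum is Lyz2, summed to 847226 in mock. They summed to 522425, 909487, 1451640, 976241 and 447431 on days 1, 3, 4, 5 and 7. The day 1 sum does not stand for the list, whose median log2 ratio was -0.03 that day, with 5 genes above 0 and 5 below. Of the 10000 expressed genes 6011 were above 0 and 3989 below. On day 7 the list median was -0.53. What part the mix of cells has in the members' course was not tested.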

How the data were processed

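The authors deposited 1 table of normalised signal (read counts divided by a factor per library) for 31617 genes in 6 libraries. Each column holds whole multiples of 1 step (100% of values within 0.01 reads), so whole reads were recovered. The submitters' processing notes name Bowtie 0.12.2 and mm8 but not what each served for. Counter, annotation and use of strand: not given in the sources used here. In GENCODE M21, 11 of the 37 members share exon bases with another gene. Some do so on the opposite strand, such as Manf with Dcaf1 and Ddit3 with Mars, and reads there cannot be told apart without strand. Others do so on the same strand, such as Hsp90b1 with Gm15344 and Manf with Rbm15b, where strand would not separate them. The library kit was NEBNext Ultra, per the labels' protocols.

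The 10000 genes ranking highest by mean, at 74.1 or more, were taken as expressed. Log2 ratios used a pseudocount of 17.8, so low genes show smaller ratios than without it. The limit was 2-fold. A floor of 3 reads was worth 2.11 to 3.88 units. Count tests on recovered reads kept genes with 60 or more reads in all and used edgeR 4.0.16 and DESeq2 1.42.0 (R 4.3.3). They called 0 genes and 2 genes for caerulein, and 0 and 20 for the trend over days, at an adjusted p of 0.05. Libraries held 14853084 to 25726455 reads. Other steps used Python 3.11.15. The calculations were tested on simulated data. The members and lists were chosen with earlier results of these data known. All members are named, and of other lists the 4 genes with the largest ratio or the 2 with the highest mean. Beyond that rule, the sort genes, Jchain and Mzb1 were named after their values were seen. No column of other samples was used. Alternatives were other scalings, a smaller pseudocount, no filter on low values, a limit of 1.5-fold, means, and leaving out each caerulein library in the count tests. The distance between the group medians was added after the data were seen.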

Additional observations from a re-analysis of the deposited data

Results flagged for a closer look

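For 6 members the level was at least 2-fold above mock on one day and at least 2-fold below it on another. Their ratios to the same mock library thus had opposite signs at 2 times. The share of all expressed genes that met this rule was not computed. With 1 library per day the difference was not tested. The count depends on scaling: with equal library totals Creld2 and Manf met it, with the median expressed gene set equal Hyou1, Manf and Pdia6, and with quantile normalisation Manf alone. Manf was at 1.46 on day 1 and -1.61 on day 7, a difference of 3.08. Creld2 was at 1.71 and -1.01 on those days, a difference of 2.72, and Pdia6 at 1.18 and -1.30, a difference of 2.47. Calr was at 1.09 and -1.37, a difference of 2.45, and Hspa5 at 1.04 and -1.39, a difference of 2.43. Hyou1 was at 1.23 on day 1 and had its lowest ratio on day 4, at -1.12, a difference of 2.34. Each difference compares 2 caerulein libraries, so the mock library cancels from it.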

How the results depend on the processing

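No paired analysis was possible because each day has 1 library. A smaller pseudocount kept all 25 counts, group medians and distances within the limits used (1.5 times for a count, the counting interval for a median). With equal library totals, day 1 had 3 higher and 4 lower members, day 5 had 5 lower, and day 7 had 1 higher and 5 lower. The folding and degradation medians were then 0.40, 0.059, -0.80, -0.50 and -0.46 on days 1, 3, 4, 5 and 7, and those of the ATF4 and CHOP targets -0.89 on day 1 and 0.0012 on day 7, a reversed sign. After centring on the median expressed gene, the folding and degradation medians were 0.53, -0.46 and -0.65 on days 1, 5 and 7. After quantile normalisation 4 members were higher on day 1 and 2 lower on day 7, and those medians were 0.31, -0.51 and -0.46 on days 1, 4 and 7. With Trib3 and Chac1 kept, the target medians were -0.18 and -0.19 on days 1 and 3 and reversed to 0.23 on day 7, and the distance between the groups was 0.82 on day 1 and -0.97 on day 7. With means, the targets were at -0.29 and -0.19 on days 1 and 3, folding and degradation at -0.63 on day 7, and the distance at 0.96, 0.30 and -0.010 on days 1, 3 and 5, the last reversed.

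At 1.5-fold the counts of higher and lower members were 15 and 6 on day 1, 2 and 2 on day 3, 1 and 15 on day 4, 2 and 10 on day 5, and 1 and 17 on day 7. The share of all expressed genes past 1.5-fold was not computed, so these counts cannot be set against it. Without the limit on the range, 2, 4 and 5 members were highest in mock and on days 3 and 7, and 1, 5, 2 and 11 were lowest in mock and on days 1, 3 and 4. The count tests called no member in any alternative run. Depth limits mainly Trib3 and Chac1.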
